A study of Macaca fascicularis with 28 samples.

Results

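The genes described here encode voltage-gated sodium channels, and they were followed through laser-captured taste buds and tongue epithelium of cynomolgus macaques. The set was chosen as 8 genes: the pore-forming alpha subunits SCN1A, SCN2A, SCN3A, SCN8A and SCN9A and the accessory beta subunits SCN2B, SCN3B and SCN4B. A probe set was counted as a member where its gene symbol, from the study's own gene table or else from the annotation of the array, was one of these. That gave 12 of the 52024 probe sets on the array, and they stand for 6 of the 8 genes. SCN2B and SCN4B have no probe set named here and are not analysed. Each probe set was read in all 28 samples.

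A voltage-gated sodium channel opens when the membrane depolarizes, lets sodium into the cell and drives the rising phase of an action potential. The alpha subunit forms the pore and the voltage sensor, while beta subunits change the gating and the surface level of the channel and act as adhesion molecules. Taste buds hold glia-like type I cells, type II cells that carry the sweet, bitter and umami receptors, and type III cells that respond to sour and form synapses. Type II and type III cells fire action potentials, and in type II cells these precede the release of ATP onto the gustatory nerve.

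The samples came from 10 animals and fall into 6 groups. In the first array set, 6 animals of 2.6 to 4.5 years (4 females, 2 males) gave taste buds of fungiform (FG) papillae on the anterior tongue, together with lingual epithelium (LE) without taste buds next to those papillae (n = 6 each). Animals 1, 3, 4 and 5 of that set also gave taste buds of circumvallate (CV) papillae on the posterior tongue and the LE beside them (n = 4 each). In the second array set, animals 7 to 10, all 3.0 years old (3 females, 1 male), gave the top and the bottom fraction of CV taste buds (n = 4 each) and no LE. The animals had no treatment in the labels, each sample holds cells of 1 animal, and the RNA was amplified before hybridization. Intensities are in the linear GC-RMA units of the deposited table, in which 25 units is the study's lower limit for a usable signal. Between 37.3% and 40.8% of probe sets reached that limit in a sample. Values of different probe sets are not comparable with each other as amounts of RNA, so each was tested only against itself. Words such as bright or dim refer to the reading of a probe set, and marker sums serve only to compare samples.

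The tissue labels were set beside marker genes. The summed level of 11 type II cell markers lay between 12360 and 28598 units in every taste bud sample, top and bottom fractions included, and between 220 and 367 units in every LE sample. The 10 type III cell markers gave 3258 to 8623 units in taste bud samples against 88.8 to 173 in LE. The reverse held for 13 markers of differentiated keratinocytes, at 81594 to 116719 units in LE and 2515 to 21818 in taste bud samples. Of the type II and type III markers, 8 of the 11 and 8 of the 10 are named by the study's table. Those were picked on these arrays for a higher level in taste buds, so their separation from LE was built in. None of the 13 keratinocyte markers is named there. The 6 type I cell markers did not separate the tissues. Their sums ran from 4004 to 5680 units in CV taste buds and from 4949 to 10178 in the LE beside them. In FG taste buds they ran from 4511 to 5696 units, and in the LE next to FG papillae from 2044 to 12087. Since each sample mixes cell types, fewer cells of a type and less RNA per cell cannot be told apart in what follows.

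SCN3A was the sodium channel with the clearest taste bud signal. It encodes an alpha subunit best known from developing neurons and endocrine cells, and its 1 probe set, MmuSTS.2368.1.S1_at, is named alike by the study's table and by the array annotation. CV taste buds read 492, 935, 1086 and 1383 units in animals 1, 3, 4 and 5. The LE beside them read 6.00, 5.58, 7.02 and 4.39 units in the same animals. FG taste buds ran from 1429 to 2718 units around a median of 2175, while the LE next to FG papillae ran from 3.77 to 9.99 with a median of 5.16. All 10 taste bud samples thus lay above all 10 LE samples with no overlap, and no LE sample came near 25 units.

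In group means, SCN3A stood at 2130.5 ± 437 units in FG taste buds (SD, n = 6) and at 974 ± 371 in CV taste buds (SD, n = 4). LE next to FG papillae had 5.97 ± 2.48 and LE next to CV papillae 5.75 ± 1.09. With values under 25 units raised to 25, CV taste buds were at least 36.5-fold and FG taste buds at least 83.6-fold above their own LE. The fitted log2 change was 7.33 ± 0.39 for the CV papilla (standard error, limma with Benjamini-Hochberg adjustment, adjusted p = 1.51e-08) and 8.55 ± 0.32 for the FG papilla (adjusted p = 2.62e-10). The direction was seen in 4 of 4 and in 6 of 6 animals.

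**Figure D1:**
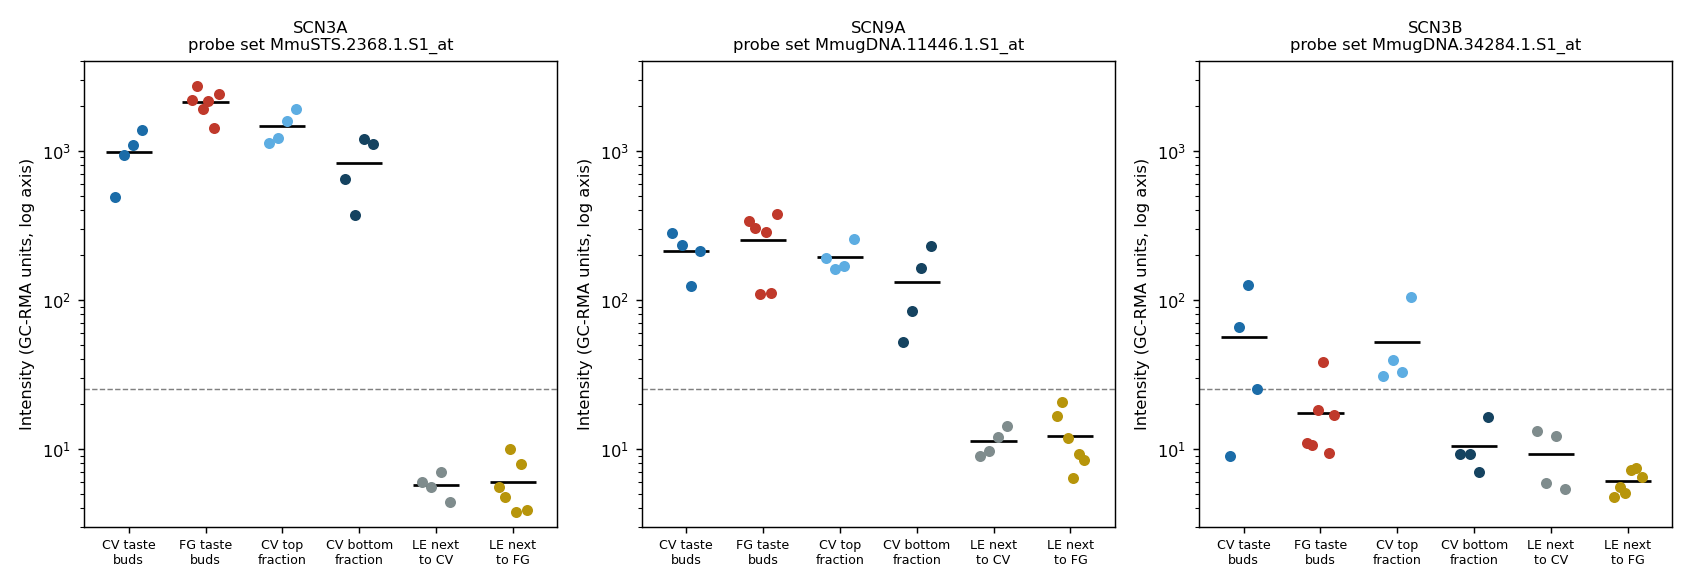
Intensity of SCN3A, SCN9A and SCN3B in every sample (GC-RMA units, log axis), 1 probe set per panel; each point is a sample, the black bar is the group mean and the dashed line marks 25 units. All taste bud samples of SCN3A and SCN9A lie above the line and all LE samples below it, while for SCN3B the 4 top fractions are above and the 4 bottom fractions below.

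SCN9A encodes another alpha subunit, best known from pain-sensing neurons, where loss of the channel abolishes pain. Its probe set MmugDNA.11446.1.S1_at read 281, 232, 123 and 212 units in CV taste buds of animals 1, 3, 4 and 5, against 9.00, 9.61, 12.1 and 14.2 in the LE beside them. FG taste buds ran from 109 to 378 units with a median of 293, and their LE from 6.36 to 20.6 with a median of 10.5. As for SCN3A, every taste bud sample was above 25 units and every LE sample below it. Among FG taste buds, animals 3 and 5 read 109 and 110.3 units and the other 4 between 283 and 378.

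The SCN9A signal was at least 8.13-fold above LE in CV taste buds and at least 9.02-fold in FG taste buds. The log2 changes were 4.20 ± 0.44 (standard error, limma, adjusted p = 7.51e-06) and 4.33 ± 0.36 (adjusted p = 6.26e-07), with 4 of 4 and 6 of 6 animals in that direction. The name of this probe set comes only from the study's table, which lists probe sets picked for a higher level in taste buds on these same arrays, so the direction is not independent of the choice. The array annotation assigns SCN9A to a different probe set, and the readings of the 2 disagree. The annotated one read 8.96, 6.49, 9.07 and 8.49 units in CV taste buds and 32.9, 8.16, 13.3 and 8.66 in their LE, lower in the taste buds of 4 of 4 animals. All but the 32.9 lay under 25 units, and it did not pass the filter on low values. With no filter, its log2 change was -0.97 ± 0.26 for FG (limma, adjusted p = 0.0145) and -0.70 ± 0.32 for CV papillae (adjusted p = 0.165).

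SCN3B encodes a beta subunit that associates with the alpha subunits of neurons and heart, and it was dimmer and more scattered than SCN3A or SCN9A. On MmugDNA.34284.1.S1_at, CV taste buds read 8.98, 65.6, 125 and 25.3 units in animals 1, 3, 4 and 5, and the LE beside them 13.2, 5.93, 12.2 and 5.41. Animal 1 was therefore not above its own LE, whereas the other 3 were. FG taste buds ran from 9.30 to 38.5 units with a median of 13.9, only animal 4 above 25, and their LE from 4.77 to 7.47. The log2 change was 2.12 ± 0.54 for CV (limma, adjusted p = 0.00741) and 1.35 ± 0.44 for FG papillae (adjusted p = 0.0246). Both calls were lost when values under 25 units were raised to 25, at adjusted p = 0.0548 and 0.803. Both were also lost without animal 3, at adjusted p = 0.0682 and 0.0719, and without animal 4, at adjusted p = 0.0654 and 0.0923, with the same probe sets tested.

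The other SCN3B probe sets gave different patterns. MmugDNA.34281.1.S1_at ran from 11.9 to 134 units in FG taste buds around a median of 28.7, with 4 of 6 samples at 25 units or more, and from 5.89 to 15.1 in their LE. CV taste buds read 9.04, 14.0, 15.5 and 22.5 units on it, none reaching 25. Its log2 change was 2.05 ± 0.42 for FG (limma, adjusted p = 0.00172, higher in each of the 6 animals) and 0.70 ± 0.51 for CV papillae (adjusted p = 0.306). The FG call was lost with low values raised to 25 (adjusted p = 0.128). The third, MmunewRS.814.1.S1_at, was bright only in CV taste buds of animals 1 and 5, at 209 and 106 units, and stayed between 3.74 and 11.2 in the other 26 samples. With no filter its log2 change was 2.46 ± 0.79 for CV papillae (limma, adjusted p = 0.0464). The probe sets thus put the SCN3B signal in different animals: animal 1 was the brightest on one and the dimmest CV sample on both others.

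SCN2A, SCN8A and SCN1A, alpha subunits abundant in central neurons, were near background in most samples. SCN2A on MmugDNA.37863.1.S1_at read 59.8, 145.3, 3.76 and 11.3 units in CV taste buds of animals 1, 3, 4 and 5, a spread between animals larger than its mean of 55.0. FG taste buds ran from 3.93 to 35.5 on it, the top fractions from 8.97 to 33.6, the bottom fractions from 3.51 to 70.8 and LE from 3.01 to 8.55. It passed the filter only with all 28 samples together, where the top fraction was 1.79 ± 0.89 on the log2 scale above LE beside CV papillae (limma, adjusted p = 0.104) and the bottom fraction 1.20 ± 0.89 (adjusted p = 0.288). Neither difference held up against the spread between animals.

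SCN8A on MmuSTS.2369.1.S1_at read 360 units in CV taste buds of animal 1 and at most 17.5 in each of the other 27 samples. SCN1A on MmugDNA.39068.1.S1_at read 79.8 units in FG taste buds of animal 2 and at most 17.4 elsewhere. On each, 1 sample alone reached 25 units. Below that limit, SCN1A was still higher in FG taste buds than in LE in 5 of 6 animals, with 17.4, 13.7 and 14.5 units against 4.23, 3.25 and 3.55 in animals 3, 4 and 6. With no filter its log2 change was 1.80 ± 0.50 (limma, adjusted p = 0.0173). The second probe sets of SCN1A, SCN2A and SCN8A never reached 25 units, with highest values of 8.28, 15.5 and 11.5. In all, 9 of the 12 member probe sets reached 25 units in at least 1 sample.

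**Figure D2:**
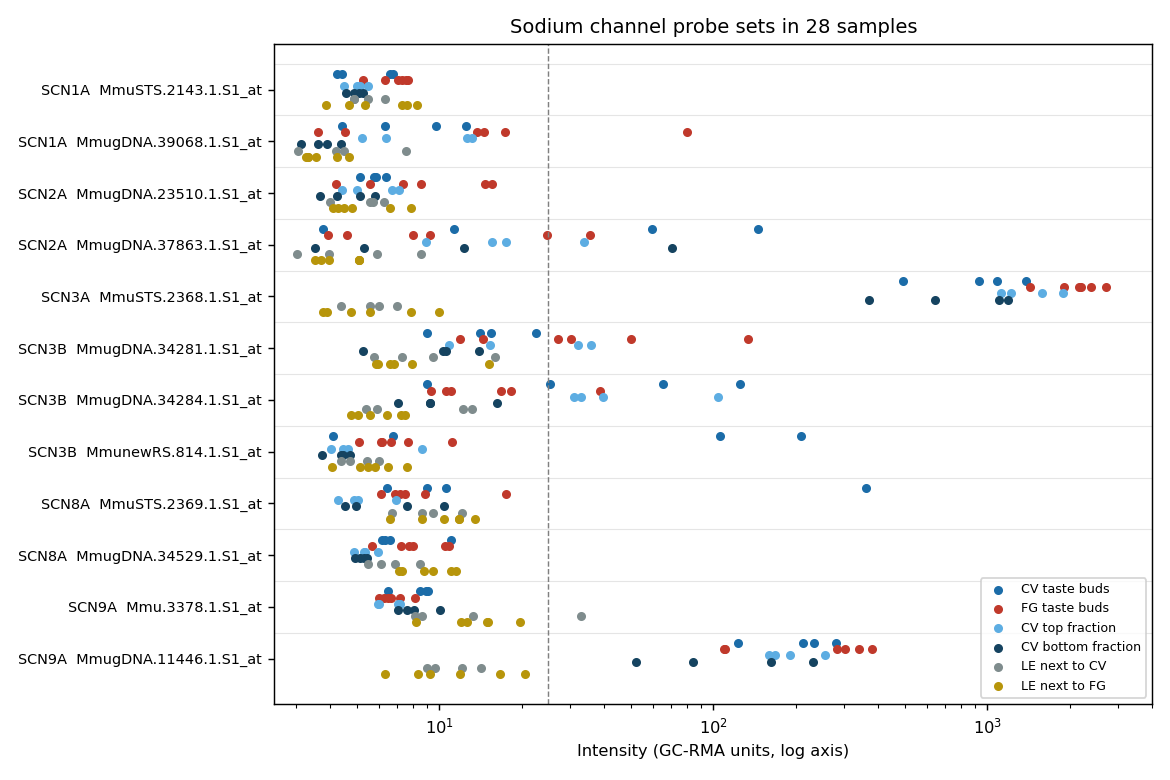
Intensity of all 12 member probe sets in the 28 samples (GC-RMA units, log axis); each point is a sample, colours mark the 6 groups and the dashed line marks 25 units. SCN3A stands far to the right in every taste bud group, and SCN9A follows on 1 of its 2 probe sets. The isolated bright points of SCN1A and SCN8A are 1 sample each, and SCN3B on MmunewRS.814.1.S1_at is bright in 2 samples.

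Counted over the array, 4 member probe sets passed the filter on low values, which asks for 25 units or more in 4 or more of the 20 samples. They passed through their taste bud samples, so a difference from LE was built into passing, and the counts below are only a description. In CV taste buds 3 of the 4 were called higher than LE and none lower, where 17.3% of all 26176 tested probe sets were called higher. In FG taste buds all 4 were called higher and none lower, against 21.1% of all tested. The methods' paired t-test, run on the same values, left 2 and 4 of the 4 after Benjamini-Hochberg adjustment. Its count over the whole array was not taken.

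Whether CV and FG taste buds differ in sodium channels was asked within animals 1, 3, 4 and 5. None of the 4 tested member probe sets passed limma, and the methods' t-test gave none. An unadjusted limma p under 0.05 was reached by 3 of the 4, and by 3042 of all 26176 tested probe sets. After adjustment, 0.871% of probe sets over the whole array were called in either direction. SCN3A came closest. CV stood below FG in each of the 4 animals, with CV to FG ratios from 0.225 in animal 1 to 0.968 in animal 5, and the lowest FG sample (1429) was above the highest CV sample (1383). The fitted CV minus FG difference was -1.22 ± 0.38 on the log2 scale with a 95% interval from -2.03 to -0.41 (limma, adjusted p = 0.177).

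SCN9A differed little in the mean, at 212 ± 66.0 units in CV and 253 ± 116 in FG taste buds (SD), and was higher in CV in 2 of the 4 animals. Its CV minus FG log2 difference was 0.05 ± 0.42 with an interval from -0.84 to 0.95 (limma, adjusted p = 0.984), which leaves room for nearly a doubling or a halving. The SCN3B probe sets pointed in opposite directions, MmugDNA.34284.1.S1_at with a CV minus FG difference of 1.22 ± 0.51 (limma, adjusted p = 0.365) and MmugDNA.34281.1.S1_at with -1.14 ± 0.49 (adjusted p = 0.376). The former passed the filter through 3 CV samples and 1 FG sample, and the latter through 4 FG samples alone. Their directions were thus partly built into being tested, and nothing is read from them or from their unadjusted p-values. The neuron and axon markers were also uneven between these tissues, summing to 1570 to 3448 units in CV samples and to 574 to 1680 in FG samples. Their part in the sodium channel values was not tested.

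The difference of differences was examined too, that is, the CV effect over its LE minus the FG effect over its LE. It was -1.22 ± 0.51 for SCN3A on the log2 scale (limma, adjusted p = 0.276) and -0.13 ± 0.56 for SCN9A (adjusted p = 0.944). Not one of the 4 member probe sets passed limma, where 0.871% of the array was called. An unadjusted limma p under 0.05 was reached by 1 of the 4, and by 3909 of all 26176 tested. Between the LE groups, next to CV and next to FG papillae, again none of the 4 passed limma, where 1.26% of the array was called. None of the 4 reached an unadjusted limma p under 0.05 either, against 4474 of the 26176. SCN3A lay under 25 units in every sample of both LE groups.

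**Figure D3:**
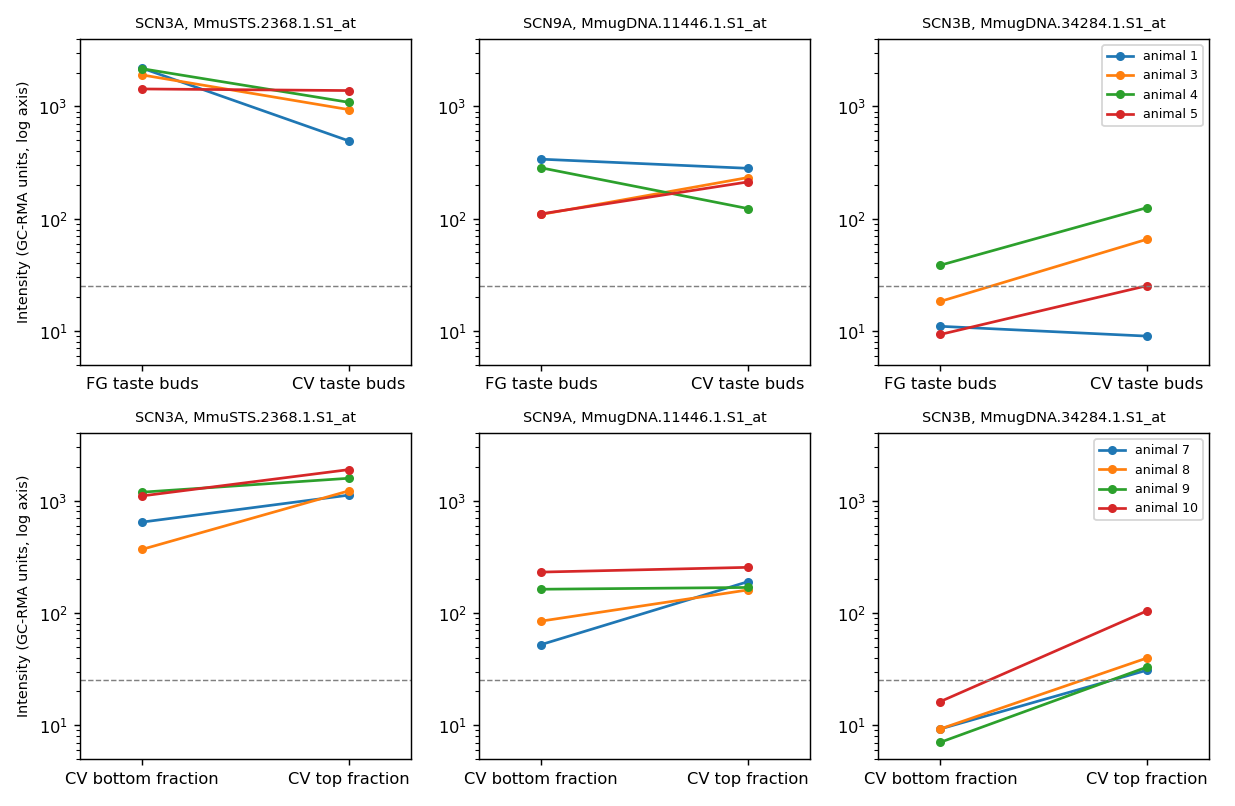
Intensity of SCN3A, SCN9A and SCN3B within animals (GC-RMA units, log axis); upper row, FG and CV taste buds of animals 1, 3, 4 and 5, and lower row, bottom and top fractions of animals 7 to 10, each line being 1 animal and the dashed line 25 units. SCN3A falls from FG to CV in 4 of 4 animals and rises from bottom to top in 4 of 4, and SCN3B rises from bottom to top in 4 of 4.

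The fractions of CV taste buds ask where along the bud a transcript lies. The top holds the apical parts of mature receptor cells. The bottom includes basal cells, and the paper proposes that precursor cells lie there. Type II marker sums ran from 24413 to 28598 units at the top against 12360 to 18194 at the bottom. Type III sums ran from 6711 to 8623 units against 3258 to 5955, so both receptor cell signals were higher in the top. In LE the same sums were 220 to 367 and 88.8 to 173 units, so the bottom fractions carried receptor cell signal too.

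SCN3A read 1119.6, 1223, 1581 and 1889 units in the top fractions of animals 7, 8, 9 and 10, and 644, 368, 1189 and 1101 in the bottom fractions. It was higher in the top in 4 of 4 animals, with ratios from 1.33 to 3.32 and a 1.91-fold difference in geometric means, although the ranges of the groups overlapped. The log2 change was 0.93 ± 0.30 with an interval from 0.20 to 1.66 (limma, adjusted p = 0.159), so it did not pass the threshold. SCN9A read 189.8, 160.1, 168 and 254 units in the top and 52.2, 84.5, 162 and 231 in the bottom fractions. It too was higher in the top in 4 of 4 animals, from 1.04 to 3.64 times, with a log2 change of 0.74 ± 0.37 (limma, adjusted p = 0.321). Animals 9 and 10 had nearly the same SCN9A level in both fractions.

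SCN3B was the only member called between the fractions. On MmugDNA.34284.1.S1_at the top fractions read 30.9, 39.7, 32.9 and 104 units and the bottom fractions 9.25, 9.25, 7.03 and 16.2 in animals 7 to 10. Each top sample was above 25 units and each bottom sample below it. The log2 change was 2.19 ± 0.27 (limma, adjusted p = 0.0245), and with low values raised to 25 the top was at least 1.81-fold above the bottom. It was called in 1 of 3 tested member probe sets, where 1.68% of 21167 probe sets were called higher in the top. It had passed the filter of 4 samples through its 4 top samples alone, so a higher level in the top was built into being tested, and nothing is read from that count. The call was lost with no filter on dim probe sets (adjusted p = 0.0514), with low values raised (adjusted p = 0.241), and without any 1 of the 4 animals, at adjusted p from 0.0620 to 0.107. The other probe set that lit up in part, MmugDNA.34281.1.S1_at, read 15.3, 35.7, 10.8 and 31.9 units in the top and 5.25, 13.9, 10.3 and 10.6 in the bottom fractions, likewise higher in 4 of 4 animals. It did not pass the filter, and with no filter its log2 change was 1.14 ± 0.31 (limma, adjusted p = 0.203).

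Against the LE beside CV papillae, which came from other animals and the other array set, SCN3A exceeded LE at least 56.9-fold at the top and at least 29.8-fold at the bottom. The log2 changes were 7.97 ± 0.37 and 7.04 ± 0.37 (limma, animal as a random block, adjusted p = 9.49e-15 and 2.11e-13). SCN9A was at least 7.60-fold and at least 4.53-fold above LE, with log2 changes of 4.09 ± 0.46 and 3.35 ± 0.46 (adjusted p = 1.24e-07 and 2.81e-06). SCN3B on MmugDNA.34284.1.S1_at was higher than LE in the top by 2.42 ± 0.57 on the log2 scale (adjusted p = 0.00139) but stood at 0.23 ± 0.57 in the bottom (adjusted p = 0.769). In the top 3 of 5 tested member probe sets were called higher against 25.1% of the array, and in the bottom 2 of 5 against 23.1%. No LE sample reached 25 units on any of the 5. A difference from LE was thus built into being tested here too, and these counts are only a description. Tissue and array set cannot be told apart in these comparisons, although all 28 arrays went through GC-RMA as 1 set.

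Ordered by mean, SCN3A ran from FG taste buds (2130.5 units) through the top fraction (1453), CV taste buds (974) and the bottom fraction (825) to LE next to FG (5.97) and LE next to CV papillae (5.75). Neighbours in that order overlapped in range, except at the step from the bottom fraction to LE. SCN9A ran from FG taste buds (253 units) through CV taste buds (212), the top fraction (193 ± 42.7) and the bottom fraction (132 ± 80.2) to LE, and its neighbours above LE overlapped too.

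**Figure D4:**
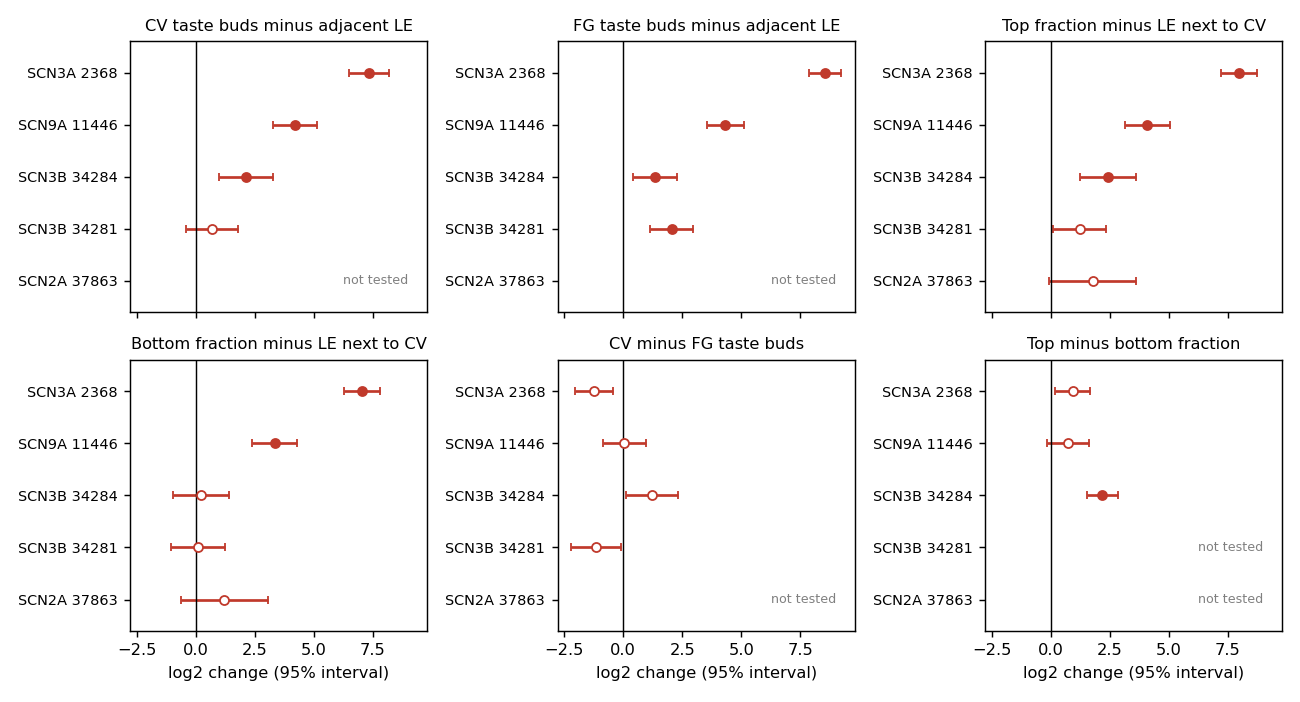
Fitted log2 changes of the member probe sets tested in at least 1 fit, labelled by gene and the number in the probe set name, in 6 comparisons; points are limma estimates, bars are 95% intervals, and filled points have an adjusted p of at most 0.05. SCN3A and SCN9A are filled in all 4 comparisons with LE and open between taste bud groups, where SCN3B is filled in the top against the bottom fraction.

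Of the other sodium channel alpha subunits reported here, SCN7A on MmugDNA.37386.1.S1_at was high in single samples, CV taste buds of animal 4 (235 units) and FG taste buds of animal 6 (199), while SCN4A and SCN10A stayed under 25 units throughout.

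A list of 22 genes known to bind, anchor or regulate sodium channels gave the surroundings of the channels. Of these, 20 had a probe set and 16 were tested, and 7 of the 20 are named by the study's table and so were chosen on these samples for a higher level in taste buds. In CV taste buds 8 of the 16 were higher than LE and 1 lower, with a median log2 change of 1.81 against -0.08 over all tested probe sets. In FG taste buds 9 were higher and none lower, with a median of 1.74 against 0.05. NRCAM, an adhesion molecule that gathers sodium channels at axon initial segments and nodes, ran from 869 to 1216 units in CV samples, from 1180 to 2011 in FG samples and from 4.08 to 17.7 in LE. Its log2 change was 7.27 ± 0.42 for CV (limma, adjusted p = 2.66e-08) and 7.64 ± 0.34 for FG papillae (adjusted p = 1.34e-09). The paper lists NRCAM among the genes most raised in FG taste buds, chosen on these samples.

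Intracellular fibroblast growth factor homologues, which bind the tail of the alpha subunit and shift its inactivation, were among the higher genes. FGF13 rose by 6.76 ± 0.60 in CV and 5.67 ± 0.49 in FG taste buds on the log2 scale (limma, adjusted p = 1.88e-06 and 1.01e-06), and FGF14 by 5.16 ± 0.46 and 4.77 ± 0.37 (adjusted p = 1.86e-06 and 3.57e-07). FGF12 passed in FG taste buds at 2.12 ± 0.61 (adjusted p = 0.0132) and stood at 0.86 ± 0.75 in CV (adjusted p = 0.394), while the difference between these effects did not pass (adjusted p = 0.575). FGF11 was lower in CV taste buds by -2.16 ± 0.55 (adjusted p = 0.00772). ANK2, an ankyrin that ties membrane proteins to the spectrin skeleton, rose by 5.66 ± 0.85 and 4.68 ± 0.69 (adjusted p = 0.000184 and 0.000154). The kinase FYN and the ankyrin ANK3 rose in both taste bud types as well. The node proteins CNTN1 and TNR and the phosphatase PTPRZ1 never reached 25 units in taste buds or LE, and NFASC did so in 1 FG sample.

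Between the top and bottom fractions, 2 of 13 tested partner genes were higher and 1 lower, where 1.68% of the array was called higher and 1.46% lower. FGF12 was 2.61 ± 0.30 higher in the top on the log2 scale (limma, adjusted p = 0.0235), from 461 to 1882 units against 86.0 to 461, and ANK2 was 1.51 ± 0.25 higher (adjusted p = 0.0382). TNC, an extracellular matrix protein that binds sodium channel beta subunits, changed by -5.66 ± 0.25 in the top (adjusted p = 0.00457), at 24.7 to 33.3 units against 1333 to 1632 in the bottom. Fibroblast markers moved with it, with a sum over 8 of 9 genes of 603 to 689 units in top and 3737 to 7614 in bottom fractions, and their part was not tested. No partner passed between CV and FG taste buds.

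**Figure D5:**
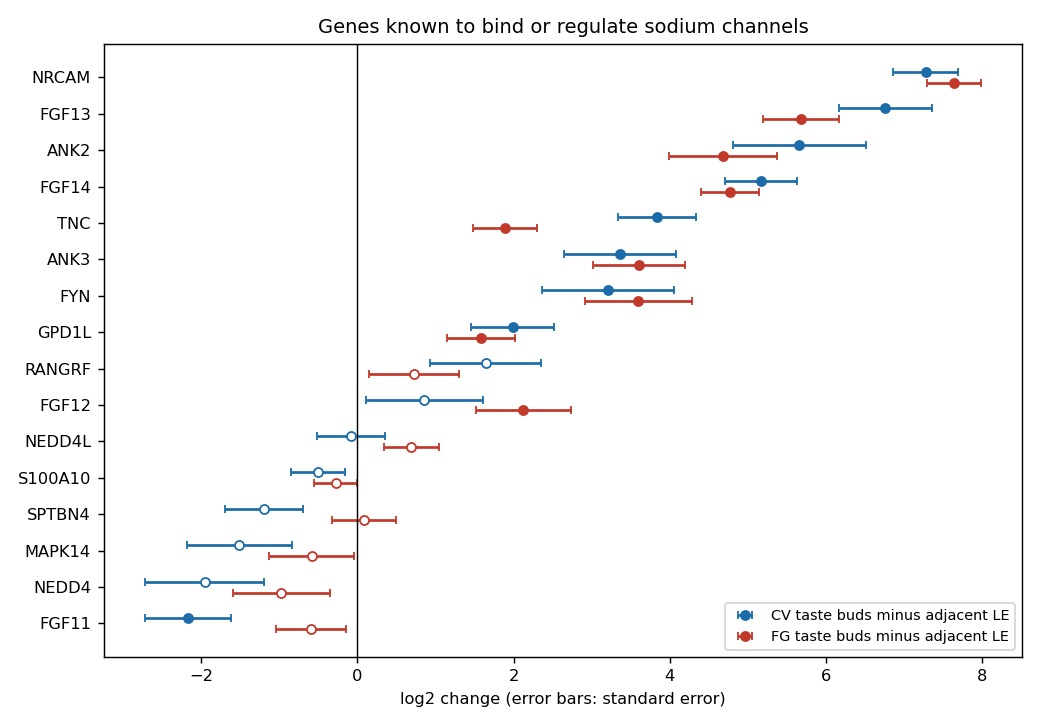
Fitted log2 changes of the 16 tested genes known to bind or regulate sodium channels, in CV and in FG taste buds against their own LE; points are limma estimates, bars are standard errors, and filled points have an adjusted p of at most 0.05. NRCAM, FGF13, ANK2 and FGF14 lie highest in both tissues, and FGF11 is the only filled point below 0.

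Nerve fibres enter taste buds, so neuronal and glial markers are given beside these values. Of 14 neuron and axon markers 10 had a probe set. They summed to 1570 to 3448 units in the CV samples and 574 to 1680 in the FG samples, with 864 to 1650 in top fractions, 614 to 1044 in bottom fractions and 152 to 450 in LE. Of the 6 tested, 4 were higher than LE in CV taste buds (GAP43, UCHL1, INA and ELAVL4) and P2RX2 was lower, and in FG taste buds 4 were higher and 2 lower. GAP43, a growth cone protein, ran from 693 to 2762 units in CV and from 166 to 475 in FG samples. Peripherin (PRPH) and ELAVL3 stayed under 25 units in every sample, the neurofilament NEFH reached at most 62.9 units, and the purinergic receptors P2RX2 and P2RX3 read at most 62.3 units in any taste bud sample. In the CV taste bud sample of animal 1 the neuron marker sum was 2000.0 units, and in the other 3 it ran from 1570 to 3448. That sample alone reached 25 units for SCN8A, on 1 of its 2 probe sets, and was the brightest for the third SCN3B probe set. Schwann cell markers, summed over 8 of 10 genes, were lower in CV taste buds (720 to 1215 units) than in the LE beside them (3152 to 4679). In FG taste buds the sum ran from 1400 to 2181 units and in their LE from 1471 to 3527, and these ranges overlap. Only 3 of the 8 genes reached 25 units in any CV taste bud sample and 4 in any LE sample beside them. The sums thus rest on few probe sets, and no amount of glia is read from them. The part of nerve RNA in the sodium channel values was not tested.

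Skeletal muscle markers were raised in several samples. Their sum over 8 of 14 genes reached 14088 units in the LE next to the FG papilla of animal 3 and 741 to 871 in that of animals 2, 4 and 5. FG taste buds of animals 2, 3 and 4 had 1878, 4046 and 1821 units, and bottom fractions of animals 8 to 10 had 380.2 to 761. The sum lay at 117 to 185 units in LE beside CV papillae, and its part in the sodium channel values was not tested. Without animal 3 the SCN3A difference between FG taste buds and LE had an adjusted p of 6.38e-08 in limma, whereas the number of member probe sets called fell from 4 to 2, the SCN3B probe sets no longer passing the filter.

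Genes whose pattern was most like that of each tested member are named as a description. Over the 28 samples and 11472 named genes, SCN3A was closest to INSM1 (Pearson r = 0.991), a zinc finger factor of neuroendocrine cells, and to NRCAM (0.988), among those reported here. SCN9A was closest to ST18 (0.968), SOX5 (0.968) and EPHA7 (0.962). These correlations mostly restate the step between taste buds and LE, since with group means removed they fell to between 0.314 and 0.632. SCN3B was closest to COL8A1 (0.852) and the bitter receptor TAS2R16 (0.813) on MmugDNA.34284.1.S1_at, and to the sweet receptor TAS1R2 (0.755) on MmugDNA.34281.1.S1_at. SCN2A was closest to SCGN (0.741).

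SCN3A, SCN2A, SCN1A, SCN9A and SCN7A lie near each other on 1 chromosome of the macaque, so their levels could be set against gene order (RefSeq, assembly T2T-MFA8v1.1; the array carries no build, and no coordinates are given). The order is COBLL1, SLC38A11, SCN3A, SCN2A, CSRNP3, GALNT3, TTC21B, SCN1A, SCN9A, SCN7A and XIRP2. SCN3A, and SCN9A on 1 of its 2 probe sets, were bright in every taste bud sample, and the dim SCN2A and SCN1A lie between them. On the SCN9A probe set of the array annotation, every taste bud sample lay under 25 units. Of the genes bordering the cluster, COBLL1 was lower than LE in CV taste buds (log2 change -1.21 ± 0.28, limma, adjusted p = 0.00475). It was not called in FG taste buds (-0.23 ± 0.23, adjusted p = 0.447), and XIRP2 was not called in either tissue. GRB14, next beyond COBLL1, was higher than LE in CV (6.43 ± 0.88, limma, adjusted p = 8.70e-05) and FG taste buds (3.12 ± 0.72, adjusted p = 0.00393). The paper lists GRB14 among its CV-enriched genes, chosen on these samples.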

How the data were processed

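Taste buds and lingual epithelium of cynomolgus macaques were laser-captured, and the amplified RNA was hybridized to Affymetrix Rhesus Macaque Genome arrays. The deposited values are linear intensities, 1 per probe set and sample, made by the authors with GC-RMA in GeneSpring GX on both array sets at once. The sources used here name no versions. Array medians run from 13.57 to 16.75 units, and values under 25 units hold little beyond background. Arrays have no read depth, so the number of animals limits precision.

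Groups, animals and the pairing by animal come from the sample labels. Deviations from group means correlated at 0.05 to 0.12 on average within animals and at -0.04 to -0.01 between animals. Where the animal was a fixed term, p-values rest on the spread left after the levels of animals and groups are removed. In the fit of all 28 samples, the spread between animals enters as well.

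Probe sets were named by the study's gene table (1997 entries used here, which were picked on these arrays for a higher level in taste buds) and otherwise by the array annotation. A gene of a list is represented by its probe set in that table, otherwise by its brightest. The members, the gene lists and the rules were chosen with earlier results of these data known. All member probe sets are named, with up to 4 called genes of each other list and the 3 genes most like each tested member, of which some are printed. Other genes of the lists are named where a count or the check of nerve markers called for them, after their values were seen. Some genes that the rule names are not reported here.

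Intensities were log2 transformed and fitted with limma 3.58.1 in R 4.3.3 for probe sets reaching 25 units in at least 4 samples of the fit, with Benjamini-Hochberg adjustment over all tested and a threshold of 0.05. The animal entered as a fixed term for the 4 groups of the first set (20 samples) and for the 8 fractions. Fractions and LE were compared in a fit of all 28 samples, in which the animal was a random effect (correlation 0.039, also used where an animal was left out). Folds outside the fits compare geometric means with values under 25 raised to 25; "at least" marks those that raising the dimmer values could only make smaller. The alternatives were no filter, low values raised to 25, arrays centred on their medians, no animal block, an intensity trend, LE as 1 group, annotation names alone, each animal left out and the methods' paired t-test. Leaving animals out with the same probe sets tested was added after seeing the data. The fits were tested on simulated data.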

Additional observations from a re-analysis of the deposited data

Results flagged for a closer look

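In 4 of 72 groups of member probe sets, 1 sample stood farther from the rest than Dixon's 95% limit allows, and chance gives about 1 such group in 20. SCN8A on MmuSTS.2369.1.S1_at read 360 units in CV taste buds of animal 1, and the next highest CV sample read 10.6. SCN8A on MmugDNA.34529.1.S1_at was also highest in that sample, at 11.0 units against 6.63 for the next, though both values lie under 25 units. FG taste buds of animal 4 read 17.5 units for SCN8A on MmuSTS.2369.1.S1_at, above 8.89 for the next, and SCN3B on MmugDNA.34281.1.S1_at read 15.1 units in LE next to the FG papilla of animal 3, above 7.93. That LE sample was also the one with the highest skeletal muscle marker sum, whose part was not tested.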

How the results depend on the processing

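SCN3A and SCN9A kept their higher level in taste buds over LE, in both papillae and both fractions, in each limma alternative that named them (the array annotation alone leaves out the bright SCN9A probe set), with adjusted p-values up to 0.00027. For FG taste buds against LE the number of member probe sets called fell from 4 to 2 when values under 25 units were raised to 25, and ranged from 2 to 4 when 1 animal was left out at a time, 2 being without animal 3. For the top against the bottom fraction it fell from 1 to 0 with no filter, with low values raised to 25, with the methods' t-test at its threshold or after adjustment, and without any 1 animal (range 0 to 0, the filter then dropping the SCN3B probe set). For the bottom fraction against LE it fell from 2 to 1 with the array annotation alone. Centring each array on its median, which shifts taste buds against LE by 0.22 (CV) and 0.44 (FG) on the log2 scale, took the SCN3B probe set MmugDNA.34284.1.S1_at below the threshold in FG taste buds (log2 change 0.91, adjusted p = 0.109). With no replicate block the counts were 3 for CV, 4 for FG and 1 for the fractions, as with the pairing by animal. Of 596 single values recomputed, 577 kept their direction and side of the threshold, 15 lost and 4 gained the call, and none changed direction in a call.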
